A study of Homo sapiens with 18 samples.

Results

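MDA-MB-231 cells maintained with 10 nM paclitaxel in the medium (PTX) were compared with control cells over exon parts and exon junctions. Of 913055 probe sets for exon parts and junctions, 684791 were bright enough to be tested, namely 435793 exon parts and 248998 junctions. A probe set was tested when its mean over 9 arrays was at least 3.89 on the log2 scale, which is the 25th percentile of all of them. The 3 dimmest probe sets kept had differences of 0.02 to 0.18 and the 3 brightest left out had differences of -0.91 to 0.28, all on the log2 scale.

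The study hybridised RNA of 3 groups of 3 arrays and deposited records of the same titles at the exon level and at the gene level. The titles do not say whether both records come from the same hybridisation. The controls carry no treatment label, the PTX cells were grown with paclitaxel, and the third group, 231T, carried exogenous TRA2A and served here only for the brightness limit and the shared estimate of spread. The sources used here do not give how long the PTX cells had been exposed, or whether they were a clone or a pool. For control replicates 2 and 3 the description names a line with another final digit, whereas the source name and the cell line label give MDA-MB-231. The labels do not state separate cultures behind the arrays of a group. The p-values therefore rest on array-to-array spread, which may be technical.

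Paclitaxel binds beta-tubulin in the microtubule, stabilises the polymer and holds dividing cells in mitosis. MDA-MB-231, a human cell line from a triple-negative breast cancer, has mesenchymal features and lacks the oestrogen and progesterone receptors. Known routes by which cultured cells come to tolerate the drug include efflux by the ABCB1 pump and altered use of tubulin isotypes.

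Each value is a deposited log2 value, a difference is the mean of PTX minus the mean of control, and a probe set or gene was called when limma's adjusted p was below 0.05. Taken over the tested probe sets, which do not count as replicates, pairs of arrays correlated with Pearson's r of 0.968 to 0.971 (control pairs), 0.952 to 0.967 (PTX pairs) and 0.947 to 0.965 (a control with a PTX array). Of the line's own markers at the gene level, VIM averaged 13.16 in control and 13.13 in PTX, CD44 10.46 and 10.71, and EGFR 10.15 and 9.34. The keratins KRT18 and KRT8 averaged 12.56 and 12.62 in control and 12.89 and 13.22 in PTX. The receptor genes ESR1 and PGR were not tested, because their means over the 9 arrays were below the gene-level limit of 3.71, and their control means were 3.74 and 3.66. Markers of other cells were near the same floor, with the fibroblast gene COL1A1 at 4.15 and 4.12 the leukocyte gene PTPRC at 3.74 and 3.83 and the haemoglobin gene HBB at 3.92 and 3.75. ERBB2 and COL3A1 were not paired with a single row here. None of the 8 markers tested was called.

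Few probe sets were called, and most of those were lower in PTX. Of the 684791 tested, 848 were called (0.124%), 207 of them higher (0.0302%) and 641 lower (0.0936%), while 77271 had an unadjusted p below the threshold. The arrays of the groups did not overlap for 16.7% of the tested probe sets. The count depended on single arrays. It was 0 without any 1 of the control arrays, without PTX-1, PTX-2, 231T-1 or 231T-2, while 59130 to 84064 then had an unadjusted p below the threshold in limma. It was 10 without PTX-3 and 377 without 231T-3. With control and PTX fitted without 231T, limma called 0, and 76937 then had an unadjusted p below the threshold.

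Exon parts and junctions differed in spread and in direction. For exon parts the median difference was -0.00, with the 5th and 95th percentiles at -0.91 and 0.74, and 2.25% were above 1 against 3.94% below -1. Calls among exon parts (0.121% in all) numbered 97 higher (0.0223%) and 430 lower (0.0987%). For junctions the median was 0.06, the same percentiles were -1.14 and 1.18, and 7.75% were above 1 against 6.88% below -1. Among junctions (0.129% called) 110 were called higher (0.0442%) and 211 lower (0.0847%). These calls came from 1 fit of both types together. With junctions fitted alone limma called 0 (lowest adjusted p = 0.058), and 24895 had an unadjusted p below the threshold. With exon parts fitted alone it called 2719. Junctions were also noisier between arrays of a group, with a median residual SD of 0.609 against 0.386 for exon parts.

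The median junction exceeded the median exon part by 0.695, 0.729 and 0.674 in the control arrays and by 0.780, 0.744 and 0.747 in the PTX arrays. Every PTX array was above every control array. The difference of 0.058 had a two-sided exact permutation p of 0.1, the smallest that 3 against 3 arrays can give.

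Differences were larger in brighter exon parts, and in junctions this was less marked. The tested probe sets were cut by mean into 10 classes of equal size. In the dimmest class (3.89 to 4.16) exon parts spread from -0.56 to 0.56 between the 5th and 95th percentiles, and in the brightest class (above 11.2) from -1.29 to 1.06. The share of exon parts below -1 was 0.615% in the dimmest class and 9.80% in the brightest, and the share above 1 was 0.428% and 5.77%. The share called was 0.00204% of exon parts in the dimmest class and 0.459% in the brightest, and 388 of the 430 lower calls lay in the 4 brightest classes. Junctions spread from -0.99 to 1.01 in the dimmest class and from -1.29 to 1.25 in the brightest, while 0.0103% and 0.421% of them were called. The median residual SD of exon parts was 0.350 in the dimmest class and 0.447 in class 9, while that of junctions was 0.631 in the dimmest and 0.512 in the brightest.

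**Figure D1:**
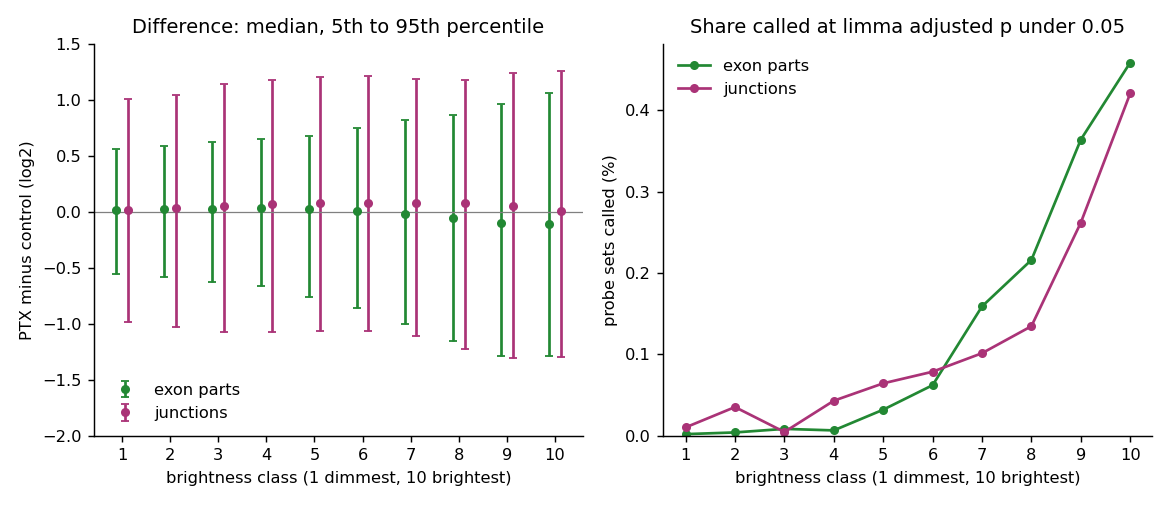
PTX minus control (log2, left; points are medians and bars run from the 5th to the 95th percentile) and the share of probe sets called (%, right) in 10 brightness classes, for exon parts and junctions. Exon parts widen from -0.56 to 0.56 in the dimmest class to -1.29 to 1.06 in the brightest, while junctions start at -0.99 to 1.01.

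PTX-2 stood apart from the other PTX arrays among bright exon parts. In class 9 the median exon part of PTX-2 lay -0.35 from the control mean, against 0.08 in PTX-1 and -0.08 in PTX-3. In the brightest class these medians were -0.29 in PTX-2, -0.00 in PTX-1 and -0.07 in PTX-3. Over all tested probe sets 11.99% of PTX-2 values were more than 1 below the control mean, against 6.86% in PTX-1 and 6.55% in PTX-3. Its part in the excess of lower calls was not tested.

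At the gene level, which summarises samples of the same titles and is no independent support, 882 of 50646 rows were called (1.74%), 221 higher (0.436%) and 661 lower (1.31%). The balance of directions depended on the arrays, with 568 higher and 708 lower without PTX-1, and 16 and 119 without control-3. With identical rows taken once, 1.67% were called (0.371% higher, 1.3% lower), and among genes with a single symbol 2.35% (0.413% higher, 1.94% lower). By the exon level, 94 genes had at least 1 probe set called higher and 228 at least 1 called lower, of 20963 genes with a single symbol, and 0 had both. At least 5 called probe sets were found in 24 genes, 5 higher and 19 lower.

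DUSP1, a phosphatase that switches off MAP kinases, fell, with 7 of its 10 exon parts called. Its gene-level values were 10.47, 9.99 and 10.24 in control and 7.43, 7.49 and 7.81 in PTX. The groups did not overlap, and the difference was -2.66 (SE 0.15, limma adjusted p = 0.000403). The median over the 10 exon parts was -3.43, and 6 of the called ones formed a run of neighbours. The largest difference among them, at exon part PSR05028431, was -4.62, and this exon part read 15.32, 15.07 and 14.92 in control and 11.45, 10.12 and 9.88 in PTX.

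CCN2, a secreted matricellular protein, also fell. Its gene-level values were 12.48, 11.98 and 12.25 in control and 10.32, 9.77 and 9.84 in PTX, with no overlap. The difference was -2.26 (SE 0.18, limma adjusted p = 0.00333), and a run of 3 neighbouring exon parts had a median of -2.59. DUSP5, a phosphatase acting on ERK, fell by 2.18 at the gene level (SE 0.29, limma adjusted p = 0.0161), from 9.30, 8.20 and 8.44 to 6.39, 6.23 and 6.78. Its call was lost when control-3 or PTX-2 was left out or 231T was not used, with adjusted p up to 0.0692.

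FN1, which encodes the matrix protein fibronectin, rose along its length. Its gene-level values were 8.85, 8.70 and 8.90 in control and 10.83, 10.46 and 11.07 in PTX, with no overlap. The difference was 1.97 (SE 0.25, limma adjusted p = 0.0132). Of its 76 exon parts 60 differed by more than 1, and 24 of its 128 probe sets were called, all higher. Without control-1 the adjusted p was 0.0549, without control-3 it was 0.0533, and with the replicate block it was 0.0557.

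Promoters of DUSP1, CCN2 and FN1 are shown because each had several exon parts called and together they cover both directions. Sequences are from RefSeq, build GRCh38.p14, from 250 bases before to 50 after the gene's start, and are written 5′ to 3′ on the gene's strand. Capitals mark TGACGTCA, the cyclic AMP response element, which reads alike on both strands, and GGAATG or its complement CATTCC, a motif of TEAD factors.
DUSP1: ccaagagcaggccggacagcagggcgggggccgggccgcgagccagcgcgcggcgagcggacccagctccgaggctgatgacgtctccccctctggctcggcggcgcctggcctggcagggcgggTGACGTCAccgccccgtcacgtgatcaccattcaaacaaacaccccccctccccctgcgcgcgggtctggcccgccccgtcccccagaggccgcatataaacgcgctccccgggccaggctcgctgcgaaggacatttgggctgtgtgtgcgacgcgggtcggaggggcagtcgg
CCN2: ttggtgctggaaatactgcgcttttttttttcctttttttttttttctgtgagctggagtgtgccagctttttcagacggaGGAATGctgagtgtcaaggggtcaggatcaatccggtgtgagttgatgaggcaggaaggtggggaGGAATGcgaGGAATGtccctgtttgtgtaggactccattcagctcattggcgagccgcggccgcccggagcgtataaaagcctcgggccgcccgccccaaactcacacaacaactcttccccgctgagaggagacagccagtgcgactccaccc
FN1: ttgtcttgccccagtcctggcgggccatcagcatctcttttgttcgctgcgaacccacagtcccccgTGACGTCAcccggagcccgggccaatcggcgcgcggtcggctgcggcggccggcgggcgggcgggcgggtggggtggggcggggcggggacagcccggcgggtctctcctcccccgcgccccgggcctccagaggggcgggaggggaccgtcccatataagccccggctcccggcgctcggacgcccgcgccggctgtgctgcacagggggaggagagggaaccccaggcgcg
They lie on the minus strand at chr5:172771146-172771445 for DUSP1, chr6:131951323-131951622 for CCN2 and chr2:215436019-215436318 for FN1. The cyclic AMP element occurred once each in DUSP1 and FN1, which moved in opposite directions, and in 649 of 35116 promoters of the table (1.85%). The TEAD motif occurred 3 times in CCN2 and at least 1 time in 4928 of the promoters counted (14.03%). Of the 9 genes named as lowest at the gene level other than MIR3143, 7 had a promoter in the table. Of these, 3 held the TEAD motif and 1 the cyclic AMP element. Of the 4 named as highest other than small nucleolar RNAs, 3 had a promoter, of which 0 held the TEAD motif and 1 the cyclic AMP element. The genes were chosen by their values, so no enrichment is read from these counts. Binding was not measured, and a match only describes the sequence.

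Further genes fell at the gene level. SAT1, the enzyme that acetylates spermidine and spermine, read 10.31, 10.08 and 10.27 in control and 8.43, 7.69 and 8.13 in PTX, a difference of -2.14 (SE 0.20, limma adjusted p = 0.00573). DKK1, a secreted Wnt antagonist, read 11.31, 11.95 and 11.67 against 9.63, 9.73 and 9.55, and KDELR3, a receptor that returns proteins to the endoplasmic reticulum, differed by -2.05. None of these overlapped between groups. UGCG, which makes glucosylceramide, fell by 2.51, the adhesion receptor gene ADGRF1 by 2.15 and CRIM1, which encodes a membrane protein that binds BMPs, by 1.84. The call of CRIM1 was lost in 9 of 15 alternatives, and that of UGCG without control-1 or control-3 and with both groups fitted alone (adjusted p up to 0.0752). The row named MIR3143 had the lowest difference, -5.74, with control values of 13.60, 11.71 and 13.43 and PTX values of 7.03, 6.81 and 7.68. What RNA that row measures was not settled here.

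At the exon level the genes with most lower calls were MAGED1 with 14 of 47 tested probe sets, SAT1 with 13 of 35 and CUL7 with 11 of 59. Of all distinct probe sets with a symbol, 0.0892% were called lower. Such counts also depend on how many probe sets a gene has. MAGED1 belongs to the MAGE family, and CUL7 is a scaffold of a ubiquitin ligase. ITGB4, the integrin subunit of hemidesmosomes, had 27 of 44 exon parts below -1 and 5 calls among 85 tested probe sets. One ITGB4 junction read 13.09, 11.95 and 12.89 in control and 8.57, 7.79 and 8.64 in PTX.

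Among the higher genes CDH11, a mesenchymal cadherin, differed by 1.96 at the gene level (SE 0.29, limma adjusted p = 0.0211), with values of 7.47, 7.38 and 7.82 in control and 10.23, 8.91 and 9.43 in PTX. HNRNPM, a splicing regulator, differed by 2.26 (SE 0.28, adjusted p = 0.0119 from limma), from 12.35, 13.52 and 13.16 to 15.53, 15.31 and 14.96. Both sets of arrays were apart. Both genes carried higher calls on exon parts and junctions, 12 of 43 tested probe sets for CDH11 and 11 of 39 for HNRNPM. The call of CDH11 was lost without any 1 of the 3 control arrays, with both groups fitted alone (adjusted p = 0.0813) and with the replicate block. That of HNRNPM was lost without PTX-2 (adjusted p = 0.0546), with both groups alone (0.0597) and with the block (0.0504), all from limma. SLC43A3, a solute carrier, and SMC1A, a subunit of cohesin, had 8 higher calls each, of 45 and 59 tested probe sets. Of all distinct probe sets with a symbol, 0.037% were called higher.

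**Figure D2:**
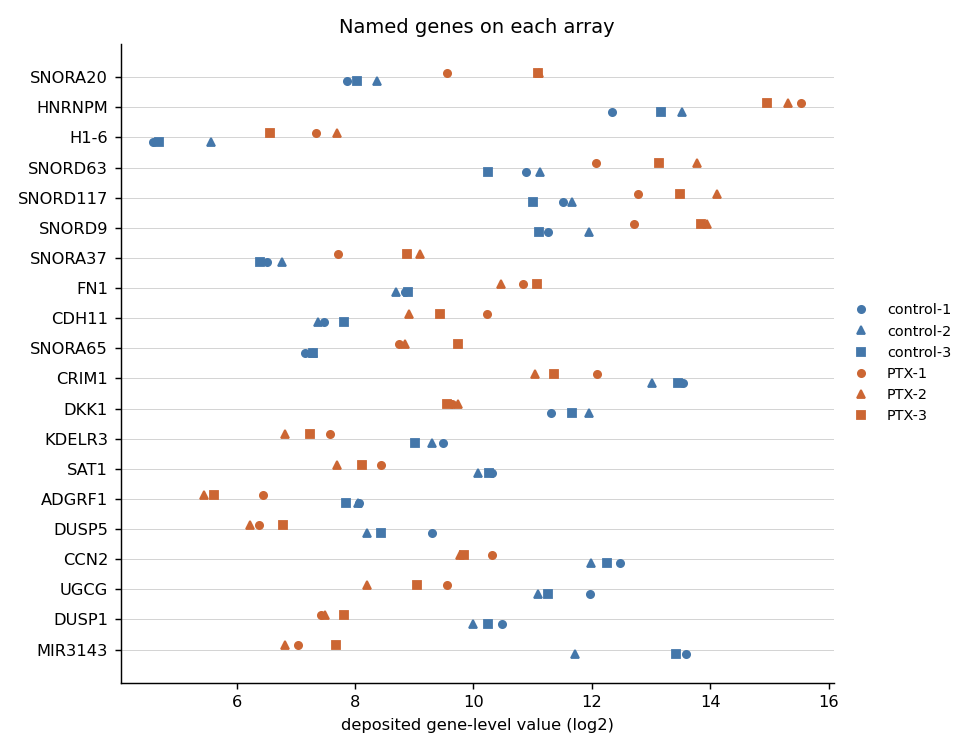
Deposited gene-level values (log2) of the 20 named genes, with 1 marker per array for 3 control and 3 PTX arrays. The PTX arrays of DUSP1 lie at or below 7.81 and the controls at or above 9.99, and FN1 shows the opposite order with PTX at or above 10.46.

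The 7 small nucleolar RNAs called at the gene level were all higher, and 0 of 193 were lower (3.63% called higher, against 0.436% of all gene-level rows). These RNAs guide modification of ribosomal RNA. SNORA20 was higher by 2.49, SNORD63 by 2.24 and SNORD117 by 2.06, and each of these calls was lost in 7 to 11 of 15 alternatives. The class median was 0.35, with 82.9% of the 193 above 0, against a median of -0.00 for protein-coding rows. Other RNA classes had medians above 0 as well, 0.69 for 20 snRNA rows (0 called), 0.42 for 21 ncRNA rows (1 called higher) and 0.19 for 818 pseudogene rows (8 higher, 1 lower). The array shifts of the nucleolar RNAs were 0.01 in PTX-1, 0.61 in PTX-2 and 0.45 in PTX-3, so the class was near the control level in PTX-1.

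The highest called difference among the probe sets named by rule was at a junction. The junction JUC17014380 of EXOC7, a subunit of the exocyst, read 3.94, 5.44 and 6.17 in control and 10.67, 11.33 and 10.95 in PTX. All PTX arrays were far above all controls, and the difference was 5.801 (SE 0.51, limma adjusted p = 0.0240). Its exon part PSR17025632 rose by 2.99 (limma adjusted p = 0.0373), and PSR17025634 differed by 2.71 (adjusted p = 0.0806, limma). The other 47 exon parts lay between -0.46 and 0.55, and the gene-level difference was 0.10 (limma adjusted p = 0.809). All 20 probe sets named by rule lost their call when some array was left out, with the highest limma adjusted p between 0.124 and 0.169. The junctions among them were also not called when junctions were fitted without exon parts.

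Among exon parts named by rule, the largest higher differences, 4.14 and 3.44, were at exon parts without a single symbol. Lower ones at -4.70 and -4.56 had no single symbol either. The others lay in genes with few and with many called parts. IFI27, an interferon-induced gene, had an exon part at 5.33, 5.48 and 5.37 in control and 8.35, 8.70 and 9.04 in PTX, a difference of 3.31. Of its 7 exon parts 1 was called and 5 were above 1, and the gene-level difference was 1.81 (limma adjusted p = 0.00965). CDH11, with 9 of 24 exon parts called, had neighbouring exon parts at 3.27 and 3.24. An exon part of the histone gene H2BC18 differed by -4.49, while the median of its 7 exon parts was -0.22.

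**Figure D3:**
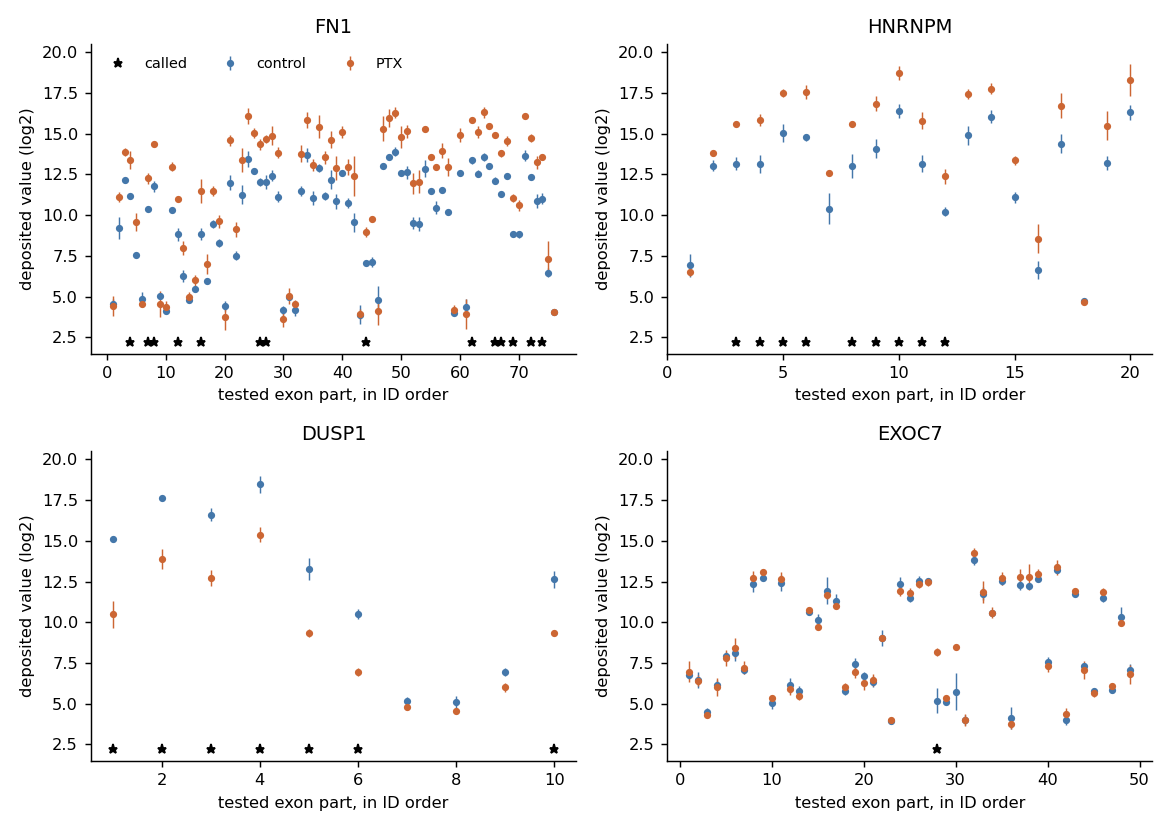
Deposited values (log2) of the tested exon parts of FN1, HNRNPM, DUSP1 and EXOC7 in ID order, with points for the mean of 3 arrays, bars for the SD and stars for called exon parts. Differences run along most of FN1, HNRNPM and DUSP1, whereas 47 of the 49 exon parts of EXOC7 lie between -0.46 and 0.55.

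Other junctions called higher were those of F13A1, a coagulation factor subunit, at 4.13, SLAMF7, an immune cell receptor, at 3.99 (another of its junctions, not called, at 7.32), and CENPE, a kinetochore motor, at 3.89. CENPE had 35 of 55 exon parts above 1 but 0 of them called. NCAM2, a neural adhesion molecule, differed by 3.70 at its junction, while its exon parts had a median of 0.23. Junctions called lower were those of DUSP5 at -4.96, PRTG at -4.43 and PTPRB at -3.86. PRTG encodes a receptor of the immunoglobulin superfamily and PTPRB a receptor tyrosine phosphatase, and neither had an exon part called. Exon parts had a median of -0.57 in PRTG and 0.16 in PTPRB, and the PTPRB junction averaged 3.93 in PTX, near the limit of 3.89.

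Exon use, the level of an exon part minus the median of its gene, was called for 15 of 281806 exon parts (0.00532%) in 11 genes, 8 higher (0.00284%) and 7 lower (0.00248%). In 11 of the 15 the gene's own median differed by more than 1, and 5 had a mean below 4.95, the 50th percentile. An exon part of SRSF1, a splicing factor, read 9.93, 9.43 and 9.52 in control and 7.73, 6.21 and 6.77 in PTX, although the gene's exon median differed by 1.44. All PTX arrays were below all controls, and its use differed by -4.01 (SE 0.29, limma adjusted p = 0.00652). An exon part of OSMR, the oncostatin M receptor, differed in use by -4.23 (limma adjusted p = 0.0199), and one of MAP4, a microtubule-binding protein, by 2.34 (limma adjusted p = 0.0335). With the replicate block, limma called 0 exon parts in this way, and 23522 had an unadjusted p below the threshold. The OSMR call held in 5 of 12 alternatives and the MAP4 call in 0.

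Exon parts coded to chromosomes 10 and 12 were lower as groups. The code in each probe set ID was read as a chromosome, which matched RefSeq for 99.9% of the named exon-level probe sets. Among exon parts with a mean of at least 7.23, the 75th percentile, the median shift per code was called for 2 of 23 codes (8.7%), both lower. Without PTX-1 it was called for 5, adding codes 11 (0.10) and 16 (0.11), both higher, and code 18 (-0.18). Code 10 shifted by -0.11, -0.28 and -0.27 in the PTX arrays, a difference of -0.22 (SE 0.04, limma adjusted p = 0.0116). Code 12 shifted by -0.14, -0.18 and -0.14, a difference of -0.15 (SE 0.02, limma adjusted p = 0.00316). Both were below the control arrays in all 3 PTX arrays, yet PTX-1 alone shifted by -0.47 at code 19 and -0.28 at code 22, where the other PTX arrays lay between 0.04 and 0.14. The adjusted p of code 10 was 0.0629 without control-1, 0.0548 without PTX-2 and 0.0529 without PTX-3, and with the 50th percentile as filter code 12 shifted by -0.08 (adjusted p = 0.0853). Code 10 stayed called with dimmer exon parts included, but its shift was -0.13 at the 50th percentile and -0.05 at the 25th. Code 12 was not called at the 25th either, with a shift of -0.03 (limma adjusted p = 0.173).

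**Figure D4:**
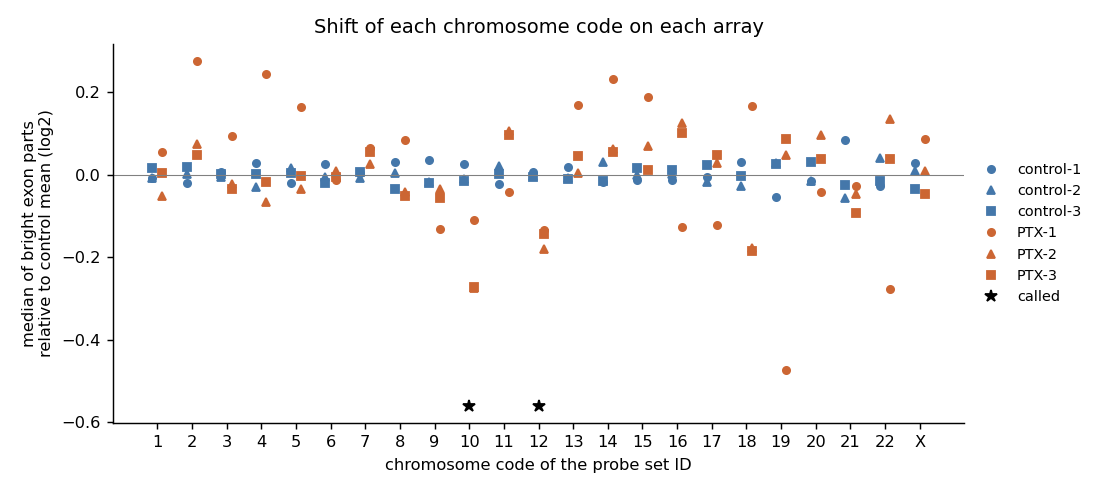
Median of bright exon parts per chromosome code and array, relative to the control mean (log2), with stars at the 2 called codes. All PTX arrays lie below 0 at codes 10 and 12, and PTX-1 stands alone at code 19 with -0.47.

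Calls of single probe sets followed codes unevenly. Code 10 had 31 exon parts called lower and 0 higher, with 18 junctions lower and 5 higher. Code 12 had 37 exon parts and 21 junctions lower and 0 higher. The share of exon parts called was 0.175% and 0.176%, against 0.121% over all codes, and codes 6, 17, 19, 21 and X had larger shares (0.198%, 0.196%, 0.207%, 0.218% and 0.340%). Code X had 43 lower and 5 higher, the highest share at 0.340% called. Of its lower calls MAGED1 held 12 and SAT1 7, and the median exon part of code X differed by 0.01. Code 2 had 16 higher and 7 lower, the most higher calls, with FN1 on that code.

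Windows of 200 neighbouring bright exon parts gave 18 called of 634 (2.84%), 6 higher (0.946%) and 12 lower (1.89%). Genes were then put in bins of 25 neighbours in RefSeq order, and 5 of 342 bins were called (1.46%), all lower and all on chromosome 10. The bin from SEC24C to CCSER2 shifted by -0.88, -0.66 and -0.59 in the PTX arrays, a difference of -0.71 (SE 0.10, limma adjusted p = 0.00131). The bin from VPS26A to USP54 shifted by -0.48, -0.52 and -0.50 (limma adjusted p = 0.00883). The bins from MYOF to SLC25A28 and ENTPD7 to GBF1 had differences of -0.58 and -0.54, and that from NFKB2 to DUSP5 had -0.46 (limma adjusted p = 0.0417). Between them WAPL to EXOC6 had -0.40 and was not called (limma adjusted p = 0.183). Outside, AGAP6 to SRGN had -0.28 and SMC3 to SEC23IP 0.21. The 342 bins lay between -0.71 and 0.33. Without control-1, control-2 or control-3, 1 bin was called in each case, without PTX-3 3, and without PTX-1 11.

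**Figure D5:**
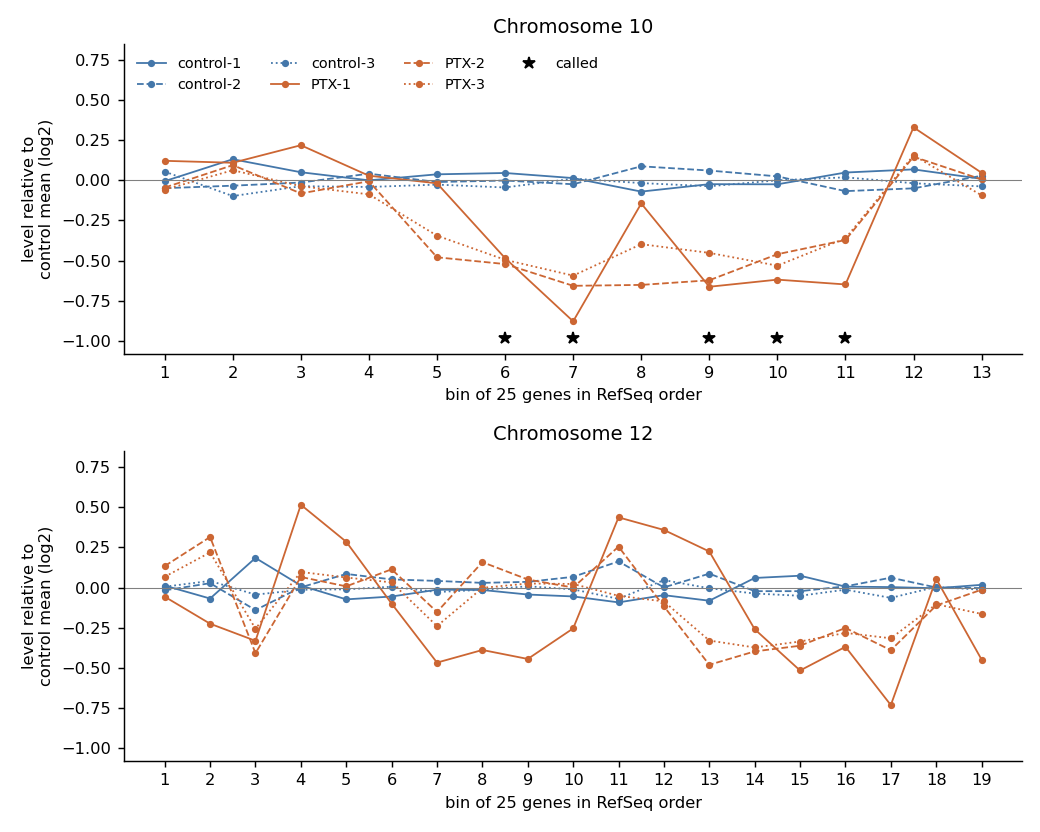
Level of each bin of 25 neighbouring genes on chromosomes 10 and 12, relative to the control mean (log2), with 1 line per array and stars at called bins. The PTX arrays lie below 0 from bin 6 to bin 11 of chromosome 10, lowest at bin 7 with -0.88 in PTX-1.

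The 6 bins from VPS26A to DUSP5 held 150 genes. These were chosen by their values, so the counts are a description. Of the 150, 122 (81.3%) were below 0, with a median of -0.49, against 48.5% of 8281 genes elsewhere with a median of 0.02. In the PTX arrays the median gene of the stretch lay at -0.52, -0.59 and -0.50, and all PTX arrays were below all controls for 49.3% of the genes, against 17.9% of all 8531. At the gene level 34 of 148 rows were called lower and 0 higher (22.97% against 1.94% of all genes with a symbol). At the exon level 29 of 5817 distinct probe sets were called lower and 0 higher, against 0.0892% lower, 0.037% higher and 0.126% in all among distinct probe sets with a symbol. DUSP5 was lowest at -3.93, followed by MRPL43 of the mitochondrial ribosome at -2.0, TMEM254 at -1.80 and PCBD1, a cofactor recycling enzyme, at -1.75. Of the 150 genes, 28 lay above 0, the highest being IFIT3, an interferon-induced gene, at 1.10 and KIF11, a spindle motor, at 0.89. In bulk RNA, less RNA per cell and fewer cells carrying it cannot be told apart.

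On chromosome 12 the 4 bins from WASHC3 to MLXIP held 100 genes, of which 74 were below 0, with a median of -0.41. None of these bins was called with exon parts, and those from SSH1 to MAPKAPK5 and PRKAB1 to MLXIP were called with junctions (limma adjusted p = 0.0367 and 0.0110). These bins were chosen by their values, so their counts are a description too. At the gene level 20 of 98 rows were called lower (20.4%, against 1.94% of all genes with a symbol) and 1 higher. At the exon level 11 of 3675 distinct probe sets were called lower (0.299%, against 0.0892%) and 0 higher.

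On 8 lists of the drug's known biology and of splicing, cytokines and cell state, 5 of 66 genes tested were called (7.58%), against 2.35% of all genes with a single symbol. The lists were chosen with earlier results known, so nothing is read from that share. Listed genes not paired with a single row here, and so not assessed, were TUBB3, STMN1, BUB1B, BBC3, SRSF2, HNRNPA1 and ZEB2. Beside the all-gene median of 0.003, the 9 tubulins tested of 10 listed had a median of 0.24, and 1 was called. TUBB4B, a beta-tubulin isotype, read 13.76, 14.16 and 13.82 in control and 14.913, 14.899 and 15.001 in PTX, a difference of 1.03 (SE 0.12, limma adjusted p = 0.00955). The groups did not overlap. TUBB2A differed by 0.91 (limma adjusted p = 0.0624), and TUBA1B and TUBB, at 19.86 and 19.18, were near the top of the scale in control. The call of TUBB4B was lost when 231T was not used (adjusted p = 0.0530) and with the replicate block (adjusted p = 0.0504). Of 5 drug transporters tested, 0 were called, with a median of 0.02, and ABCB1 was below the limit at 3.62 in control and 3.69 in PTX.

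The 8 microtubule-binding genes and 10 spindle checkpoint genes held 0 calls, with medians of -0.06 and 0.19. Of 8 apoptosis genes 1 was called, the anti-apoptotic BCL2L1 at -0.60 (limma adjusted p = 0.04996), with a median of -0.02. Of 10 genes on the splicing list 1 was called, SRSF6 at 1.28 (limma adjusted p = 0.0486), 9 were above 0 and the median was 0.37. The remaining gene, CALU, encodes a calcium-binding protein and is no splicing factor. It differed by -0.995 (limma adjusted p = 0.226). TRA2A itself, the factor added in 231T, differed by 1.04 at the gene level with an adjusted p of 0.0539 from limma and had 16 of 25 exon parts above 1. At the exon level 2 of its probe sets were called higher, as were 0.037% of all distinct probe sets with a symbol. Of 8 cytokines 0 were called, and the chemokine CCL2 read 9.95, 10.68 and 10.24 in control and 13.26, 11.99 and 13.51 in PTX, a difference of 2.63 (limma adjusted p = 0.135). Of 8 epithelial-mesenchymal genes 2 were called higher, FN1 and the repressor gene SNAI2 at 0.62 (limma adjusted p = 0.0396), with a list median of 0.08. The calls of SRSF6, BCL2L1 and SNAI2 were each lost in 13 of 15 alternatives.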

How the data were processed

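The authors deposited log2 values, and the submitters' processing notes name RMA and Affymetrix Expression Console 1.3.1. The sources used here give neither the settings nor the genome build. Gene names came from the platform annotation, updated through RefSeq (GRCh38.p14). Of 913055 exon-level probe sets 672085 had 1 symbol, 39483 several and 201487 none, and of 67528 gene-level rows 23781, 1543 and 42204. On 2995 rows shared by both levels all 231T values were equal within 0.0001, against 0 to 74 per control or PTX array, so 231T was summarised apart from them in at least 1 table.

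Differences were fitted in R 4.3.3 by lmFit and eBayes of limma 3.58.1 over all 9 arrays, with 6 residual and 3.55 (gene level 2.54) prior degrees of freedom, and Benjamini-Hochberg adjustment over everything tested at a threshold of 0.05. The few arrays limit precision. The standard error had a median of 0.361. Bins held 25 genes with at least 3 bright exon parts each, and exon use needed 5 tested exon parts. The fits were tested on simulated data. Named probe sets were, for each type and direction, the 5 called ones with the largest difference whose arrays did not overlap and whose means were at most 16. The same rule at the gene level gave 10 rows each way, of which 8 higher and 6 lower had no single symbol, so the text names the 10 each way with a symbol, a choice made after their values were seen. Members and lists were chosen with earlier results of these data known. Alternatives were other filters, fits and left-out arrays. Log2 differences were not read as folds of RNA, since some values exceed 16.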

Additional observations from a re-analysis of the deposited data

Results flagged for a closer look

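Of 1530 control rows outside the exon-part and junction probe sets, 4 were higher in PTX than in the control arrays (limma adjusted p below the threshold), with differences of 2.53 to 3.04 on the log2 scale, and 167 had an unadjusted p below the threshold. What these rows measure was not settled here.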

How the results depend on the processing

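The number of called probe sets was 1869 with the 50th percentile as filter, 3917 with the 75th, 1796 with array weights, 2719 with exon parts alone and 0 with junctions alone (24895 unadjusted by limma), against 848. It was 0 with control and PTX alone (76937 unadjusted) and 0 with the replicate block (71925 unadjusted), and 0 to 377 with 1 array left out. Gene-level calls were 100 with both groups alone, 148 with the replicate block, 453 with an intensity trend and 135 to 1276 with 1 array left out. Windows of 200 exon parts, 18 of 634 called (2.84%), were 7 and 5 at the 50th and 25th percentile, 28 with identical probe sets once, 28 with the mean, 3 with both groups alone and 2 to 82 with 1 array left out. Bins called were 9 with gene-level rows and 1 to 11 with 1 array left out. Exon use calls were 4 with both groups alone, 0 with the replicate block, 8 with a trend and 0 to 11 with 1 array left out. Code 10 was -0.22 with both groups alone, not called, and -0.27 to -0.19 with 1 array left out. It was -0.13 and -0.05 at the 50th and 25th percentile, still called. Code 12 was -0.077 at the 50th percentile and -0.028 at the 25th, and was called at neither (limma adjusted p = 0.0853 and 0.173). The cause was not tested.

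Correlations of same-numbered control and PTX deviations were -0.086, -0.018 and 0.016, against -0.067 to 0.078 for other numbers. Deviations were taken from means of only 3 arrays, so this check cannot decide whether the numbers pair the arrays. Of the 20 genes named at the gene level 6 kept their call in all 15 alternatives. No result changed sign where it was called.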
